A study of Mus musculus with 60 samples.

Results

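The genes for the protein subunits of the mitochondrial ribosome were examined in heart, gastrocnemius muscle and neocortex of mice. Members were all genes whose single symbol in the platform annotation starts with Mrpl or Mrps followed by a digit. This gave 76 genes of 18193, with 156 probe sets of 34945, of which 29 genes carry an Mrps and 47 an Mrpl symbol. Expression was measured on Affymetrix Mouse Genome 430 2.0 arrays, whose probe sets report a linear signal, with 5 arrays per tissue and group and 60 in all. The groups of 30 months were male C57BL/6 by C3H/He F1 mice on a calorie restricted (CR) diet, on a control diet with 4.9 mg per kg of resveratrol a day, or on the control diet alone (old control). The CR and resveratrol diets began at 14 months, old controls stayed on the control diet throughout, and the young controls were mice of 5 months on the control diet. The labels give the restriction as 40%, while the weekly rations stated in the methods amount to a smaller one, and the control mice were themselves fed slightly less than they would eat freely. All mice were housed singly, and the labels name no engineered allele. Mrpl30 and Mrpl53 have no probe set of their own on this platform's annotation and are not analysed here.

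Mitochondria keep a ribosome of their own, which translates the few messenger RNAs encoded by mitochondrial DNA, all of them for subunits of the respiratory chain and the ATP synthase. Its ribosomal RNAs come from mitochondrial DNA, but every protein of it is encoded in the nucleus, made in the cytosol and imported. Mrps genes encode proteins of the small subunit, which reads the messenger RNA, and Mrpl genes those of the large subunit, which joins the amino acids. Some of these proteins have bacterial counterparts and others are found only in mitochondria. Heart and skeletal muscle are rich in mitochondria, and mutations of single subunits in humans, such as MRPS22 or MRPL44, cause disorders of the respiratory chain that can involve the heart. Mrps36 is kept here because the rule takes symbols, although its product is now known as a subunit of the oxoglutarate dehydrogenase complex. Mrpl57 and Mrpl58 are later names of genes known as Mrp63 and Ict1.

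The nuclear factors NRF1, GABPA (an ETS factor) and YY1 are known to bind promoters of many genes for mitochondrial proteins, so the members' promoters were searched for their core letters. RefSeq promoters (GRCm38.p6, 250 bases before to 50 after the start site) were at hand for 67 of the 76 genes, and Mrpl13, Mrpl15, Mrpl19, Mrpl38, Mrpl4, Mrpl54, Mrps28, Mrps34 and Mrps35 are named only. On either strand, the NRF1 core GCGCATGC was found in 8 of the 67 (11.9%) against 3.05% of 27025 genes with a promoter of this length. The ETS core CCGGAAG was found in 25 (37.3%) against 9.93% of all genes, and the YY1 core AAGATGGC in 12 (17.9%) against 3.19%. A GC box, GGGCGG, was found in 34 (50.7%) against 38.2%, and the core CAAGGTCA of estrogen-related receptors in 2 (2.99%) against 1.76%. These are counts of letters in a window and not of bound sites. NRF1 letters on the 2 strands can overlap each other. The 130 bases upstream of the start site are printed for 8 members whose signals the results turn on, with letters of the searched motifs in capitals and all others in lower case. Mrps22, Mrpl34 and Mrpl50 are among the genes with the largest changes in heart, Mrpl33 was higher in old than in young hearts, Mrpl39 and Mrpl51 rose under both diets in muscle and neocortex, and Mrpl20 and Mrpl41 had the 2 largest rises in the neocortex under CR.
Mrps22: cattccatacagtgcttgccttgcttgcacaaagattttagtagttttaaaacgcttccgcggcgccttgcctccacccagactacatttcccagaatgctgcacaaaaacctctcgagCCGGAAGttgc
Mrpl34: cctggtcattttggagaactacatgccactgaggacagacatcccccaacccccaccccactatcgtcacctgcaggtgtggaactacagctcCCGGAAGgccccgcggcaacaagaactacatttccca
Mrpl50: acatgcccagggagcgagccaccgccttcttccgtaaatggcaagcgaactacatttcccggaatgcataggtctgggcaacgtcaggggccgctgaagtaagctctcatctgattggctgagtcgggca
Mrpl33: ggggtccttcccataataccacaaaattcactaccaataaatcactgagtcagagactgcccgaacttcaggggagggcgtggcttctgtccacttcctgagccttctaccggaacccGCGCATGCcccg
Mrpl39: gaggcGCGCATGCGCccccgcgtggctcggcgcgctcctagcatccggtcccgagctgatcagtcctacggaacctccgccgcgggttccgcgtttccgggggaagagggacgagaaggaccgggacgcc
Mrpl51: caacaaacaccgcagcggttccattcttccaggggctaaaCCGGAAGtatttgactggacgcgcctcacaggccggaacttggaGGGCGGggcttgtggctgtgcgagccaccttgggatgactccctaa
Mrpl20: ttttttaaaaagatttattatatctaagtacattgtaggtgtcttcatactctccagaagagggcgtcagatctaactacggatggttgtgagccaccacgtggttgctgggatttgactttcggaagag
Mrpl41: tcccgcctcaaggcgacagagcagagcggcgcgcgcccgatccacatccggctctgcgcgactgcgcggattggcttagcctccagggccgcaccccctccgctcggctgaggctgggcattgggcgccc
The coordinates in GRCm38.p6 are Mrps22 chr9:98601680-98601809 (minus), Mrpl34 chr8:71464796-71464925 (plus), Mrpl50 chr4:49521084-49521213 (minus), Mrpl33 chr5:31613821-31613950 (plus), Mrpl39 chr16:84735245-84735374 (minus), Mrpl51 chr6:125192070-125192199 (plus), Mrpl20 chr4:155802748-155802877 (plus), Mrpl41 chr2:24975099-24975228 (minus). The windows of Mrps22 and Mrpl34 hold an ETS core, that of Mrpl51 an ETS core and a GC box, and those of Mrpl33 and Mrpl39 NRF1 cores, which in Mrpl39 overlap on the 2 strands. None of the searched letters were in the windows of Mrpl50, Mrpl20 and Mrpl41.

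For each gene the probe set with the highest mean signal stood for the gene, and signals were compared as log2. One limma model per tissue held its 20 arrays, and p was adjusted (Benjamini-Hochberg) across every gene tested, 13236 in heart, 12775 in muscle and 13067 in neocortex. A gene is said to rise or fall where the adjusted p is under 0.05, two-sided. All 76 members passed the filter on low signals in every tissue. Changes are given as differences of log2 signal with their SE from limma, and both diets were compared with the same 5 old control arrays, so their changes are not independent of each other or of the change with age. The brightest probe set was of the cross-reactive s or x type in 6 and 2 members, Mrpl38 and Mrpl28 among them, which can bind related transcripts. In whole tissue, fewer cells of a type and less RNA per cell cannot be told apart.

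The summed signal of 8 marker genes of heart muscle cells had a median of 534732 in young hearts, 40684 in young muscle and 2305 in young neocortex, and the medians of 8 skeletal fibre genes in young muscle and of 8 neuronal genes in young neocortex were 460145 and 103422. Arrays differed in RNA quality and labelling between the groups compared. In heart, the 3' minus 5' log2 difference of actin was 0.787 under CR, 0.819 under resveratrol, 1.39 in old controls and 0.719 in young controls, and old controls overlapped with no other group (two-sided exact permutation, p = 0.00794, which is the lower limit for 2 groups of 5, and 0.0165 after adjustment for 27 tests). In muscle, transcripts spiked in before labelling had a mean log2 signal of 9.92 under CR, 10.0 under resveratrol, 6.78 in old controls and 7.41 in young controls. Old control replicate 1 stood apart with a GAPDH 3' minus 5' difference of 3.23. Every old control of muscle exceeded all CR and resveratrol arrays in this difference, at -0.218 or more against at most -0.235 and -0.232. The exact permutation gave an adjusted p of 0.0165 for each diet, while the actin difference in muscle did not pass. In neocortex the actin difference was 0.708 under CR, 0.887 under resveratrol, 0.546 in old controls and 0.608 in young controls. Old controls reached at most 0.603, below all CR arrays (from 0.664) and resveratrol arrays (from 0.755). The exact permutation gave an adjusted p of 0.0165 for each diet, while the GAPDH difference in neocortex did not pass. By the same test the GAPDH difference in heart passed for age (0.281), CR (-0.347) and resveratrol (-0.303), each at an adjusted p of 0.0165. The spiked-in signal differed in heart under CR (-0.731, adjusted p = 0.0306) and in neocortex under resveratrol (1.04, adjusted p = 0.0165). Its mean in neocortex was 9.14 under CR, 9.81 under resveratrol and 8.77 in old controls. The part of these differences in the changes of the members was not tested. Young control replicate 1 of heart had the lowest mean correlation with its own group, 0.872.

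In young controls, the genes were highest in heart and lowest in neocortex. Heart exceeded neocortex in 73 of 76 members, with none lower (background 34.8% of 15129 genes higher and 33.7% lower), and the median log2 difference was 1.37, against 0.06 over all genes. Muscle exceeded neocortex in 60 members and was lower in 4 (background 34.5% higher and 35.8% lower), with a median of 0.84 against 0.04. Heart exceeded muscle in 48 members and was lower in 4 (background 29.5% higher and 21.5% lower), with a median of 0.46 against 0.10. The medians of both subunits were near each other against neocortex, at 1.37 for Mrps and 1.39 for Mrpl in heart against neocortex and at 0.83 and 0.84 in muscle against neocortex, and stood at 0.33 and 0.48 in heart against muscle.

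The size of the difference varied between members, and some departed from this order. The values named here are those of the brightest probe set alone. Mrpl42, Mrps28 and Mrps35 had the largest excess of heart over neocortex, with log2 differences of 3.11 (SE 0.09), 2.69 (SE 0.13) and 2.67 (SE 0.12). Mrpl41, a subunit with no bacterial counterpart, was higher in heart than in muscle by 2.12 (SE 0.13), and it was lower in muscle than in neocortex, with a log2 difference of -1.25 (SE 0.13). Mrpl33 showed the reverse arrangement between both muscles, with heart below skeletal muscle at -1.52 (SE 0.31) and skeletal muscle above neocortex at 2.97 (SE 0.31). Mrps35 and Mrps6 followed Mrpl41 in the excess of heart over muscle, at 1.54 (SE 0.12) and 1.46 (SE 0.16), while Mrps18b and Mrpl15 were lower in heart, at -0.36 (SE 0.12) and -0.28 (SE 0.10). In muscle against neocortex, Mrpl51 and Mrpl42 were higher by 2.70 (SE 0.10) and 2.64 (SE 0.09), and Mrpl49 and Mrps12 were lower, at -0.51 (SE 0.12) and -0.39 (SE 0.11). Mrps12, the decoding centre protein, Mrps5 and Mrps26 were the 3 members without a difference past the test between heart and neocortex, at 0.06, 0.06 and 0.03.

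**Figure D1:**
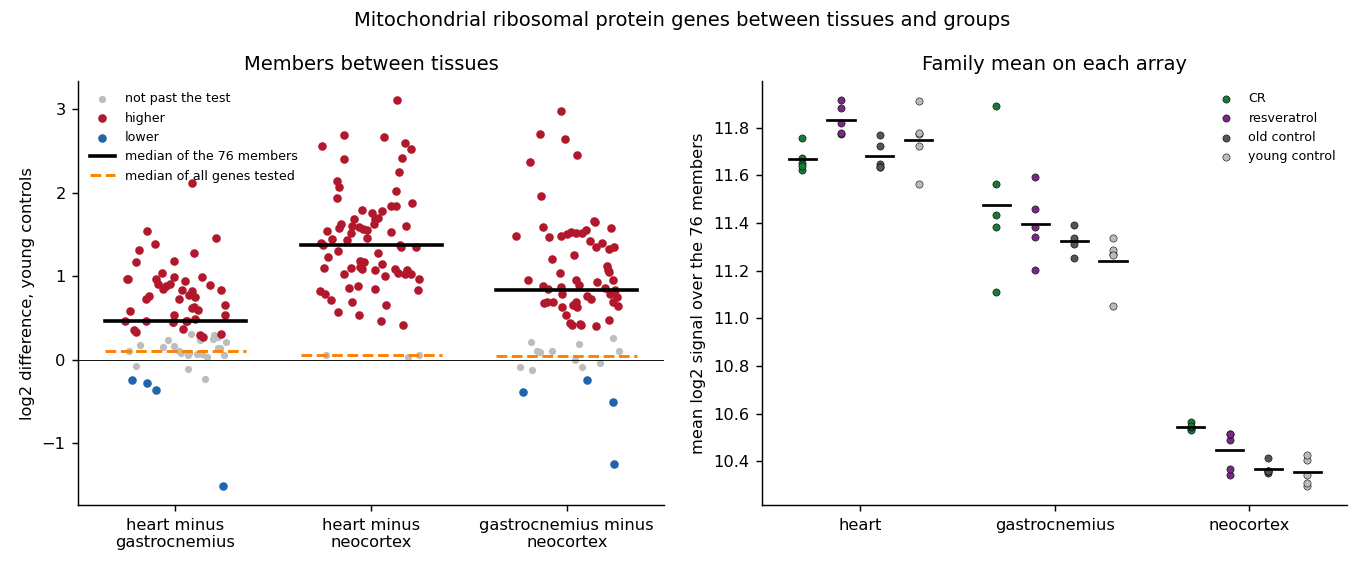
Left, log2 differences between tissues in young controls, with 1 point per gene, red or blue where the adjusted p is under 0.05, a black line at the median of the 76 members and a dashed orange line at the median of all genes tested. Right, the mean log2 signal over the 76 members on each of the 60 arrays, with a line at the mean of each group of 5 arrays, where the 5 neocortex arrays under CR lie between 10.53 and 10.57 and above the 5 old controls.

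The family mean was lower on every neocortex array than on any array of heart or muscle, while the arrays of heart and muscle overlapped. Over the 76 genes the mean log2 signal in heart was 11.67 ± 0.053 under CR, 11.83 ± 0.062 under resveratrol, 11.68 ± 0.060 in old controls and 11.75 ± 0.12 in young controls (SD, n = 5 each). In neocortex it was 10.54 ± 0.014 under CR, 10.45 ± 0.084 under resveratrol, 10.37 ± 0.025 in old controls and 10.36 ± 0.057 in young controls. In muscle it was 11.48 ± 0.28 under CR, 11.40 ± 0.14 under resveratrol, 11.32 ± 0.05 in old controls and 11.24 ± 0.11 in young controls. The CR arrays of muscle ranged from 11.11 (replicate 1) to 11.89 (replicate 2), and all resveratrol and old control arrays lay between them. The spread of the CR arrays in muscle is the widest of the 12 groups.

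**Figure D2:**
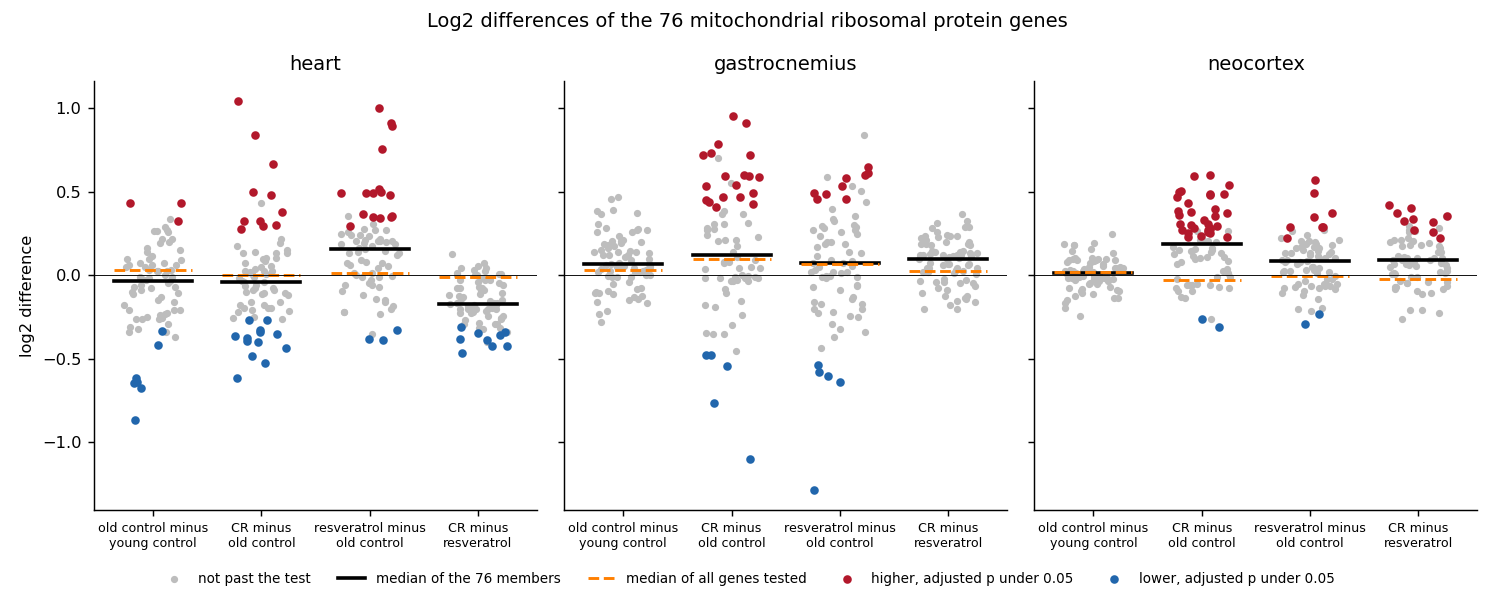
Log2 differences of the 76 members in the 12 comparisons, by tissue, with red and blue points for genes higher or lower at an adjusted p under 0.05, grey points for the others, a black line at the median of the members and a dashed orange line at the median of all genes tested. In the neocortex under CR 32 points are red and 2 blue, and in muscle and neocortex with age none are coloured.

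The question of the age comparison is which genes differ in old mice on the control diet. In heart 3 members rose and 7 fell with age (background 7.09% of 13236 genes rose and 3.9% fell), and the median change was -0.03 against 0.03 over all genes. The falls comprised 2 Mrps and 5 Mrpl genes and were led by Mrps22, with a mean signal of 1186 ± 61.7 in old controls and 2170 ± 207 in young controls (SD, n = 5 each). None rose or fell in muscle (background 0.25% rose and 0.172% fell) or in neocortex (background 1.09% rose and 0.383% fell). At an unadjusted p under 0.05, limma gave 7 members in muscle (background 13.9%) and 6 in neocortex (background 15.1%), which are smaller shares of the 76 than of all genes.

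Mrps22, a small subunit protein without bacterial counterpart, had signals of 1289, 1171, 1127, 1156 and 1188 in old control hearts and of 1999, 2275, 2128, 2473 and 1977 in young control hearts. Every old control lay below every young control, and the log2 change was -0.87 (SE 0.10, adjusted p = 4.04e-06). Mrps23, another protein of the small subunit, had 3683, 3851, 3089, 2426 and 2577 in old control hearts and 4452, 5888, 5010, 5024 and 3904 in young control hearts, with a change of -0.65 (SE 0.13, adjusted p = 0.00139). Here too the groups did not overlap, although the 2 other probe sets of Mrps23 gave 0.00 and 0.17, which did not pass the test. Mrpl50, a mitochondria-specific protein of the large subunit, had 1861, 1613, 1688, 1585 and 1705 in old control hearts and 1825, 3186, 2495, 2880 and 3014 in young control hearts. The change was -0.64 (SE 0.14, adjusted p = 0.00377), with young control replicate 1 within the range of the old controls, and its second probe set gave -0.24, which did not pass.

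Mrpl45, which fastens the mitochondrial ribosome to the inner membrane, had 2823, 2868, 2497, 2202 and 2407 in old control hearts and 3028, 4133, 4240, 4256 and 3976 in young control hearts. The groups did not overlap, and the change was -0.61 (SE 0.10, adjusted p = 0.000291). Mrpl34, a small protein of the large subunit with a bacterial counterpart, had 3102, 2525, 3812, 2533 and 3359 in old control hearts and 3226, 4979, 4722, 7045 and 4972 in young control hearts, with a change of -0.68 (SE 0.17, adjusted p = 0.0118) and young control replicate 1 again among the old values. Averaged over its probe sets, the fall of Mrpl34 did not pass (adjusted p = 0.241). Mrpl37 and Mrpl43 fell by 0.42 and 0.34 on the log2 scale.

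The 3 rises in old hearts were Mrpl33, Mrps10 and Mrpl44. Mrpl33 had 2060, 2447, 2387, 2437 and 1752 in old control hearts and 1859, 1719, 1843, 1370 and 1420 in young control hearts, and the groups overlapped at 1 old array (0.43, SE 0.12, adjusted p = 0.0182). Mrps10 had 1960, 1839, 1586, 1794 and 2164 in old control hearts and 949, 1530, 1491, 1476 and 1545 in young control hearts (0.43, SE 0.13, adjusted p = 0.0268). The groups did not overlap, but young control replicate 1 lay far below the other 4, and without it the change was 0.30 and did not pass (adjusted p = 0.0627). Mrpl44, whose product contains an RNase III-like fold, rose by 0.33 (SE 0.10, adjusted p = 0.0433). Averaged over their probe sets, neither Mrpl44 (adjusted p = 0.997) nor Mrpl33 (adjusted p = 0.146) passed. All 3 rises depended on single arrays. Mrpl33 lost the threshold without any 1 of 3 arrays (adjusted p of up to 0.0521), Mrps10 without any 1 of 3 (up to 0.0766) and Mrpl44 without any 1 of 6 (up to 0.116). Without young control replicate 1 of heart, 1 member rose and 16 fell with age. With quantile normalization of the arrays 2 rose and 15 fell. The shares of all genes that rose or fell at these settings were not counted.

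Under CR, 11 members rose and 13 fell in heart (background 8.08% rose and 14.2% fell), and the median change was -0.04 against 0.00 over all genes (0.01 for the members with quantile normalization). Of the 29 Mrps genes 4 rose and 7 fell, and of the 47 Mrpl genes 7 rose and 6 fell. Under resveratrol 16 rose and 3 fell (background 7.17% rose and 10.6% fell), with a median of 0.16 against 0.01, and 6 Mrps and 10 Mrpl genes were among the rises. Against the same old controls, Mrpl16, Mrpl27, Mrpl40, Mrpl42, Mrpl48, Mrpl49, Mrpl50, Mrps22, Mrps23 and Mrps31 rose under each diet, and Mrpl38, Mrps24 and Mrps5 fell under each. Under resveratrol the fall of Mrps5 was lost without any 1 of 6 arrays (adjusted p of up to 0.0885), and averaged over their probe sets neither Mrps5 (adjusted p = 0.753) nor Mrpl38 (adjusted p = 0.457) passed.

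Mrpl50 had the largest change of the family in heart under either diet. Its signals were 3302, 4496, 3780, 3097 and 2953 under CR and 3782, 3348, 2977, 4208 and 2759 under resveratrol, against the old control values of 1585 to 1861 given above. No treated array reached down to the old controls, and the changes were 1.05 (SE 0.14, adjusted p = 7.26e-06) under CR and 1.0 (SE 0.14, adjusted p = 1.91e-05) under resveratrol. The second probe set of Mrpl50 gave 0.19 and 0.37, neither past the test. Mrps22 had 1921, 2066, 2167, 1936 and 2562 under CR and 2385, 2400, 2141, 2375 and 1887 under resveratrol, against 1127 to 1289 in old controls. Its only probe set rose by 0.84 (SE 0.10, adjusted p = 1.84e-06) under CR and 0.91 (SE 0.10, adjusted p = 1.25e-06) under resveratrol, and the ranges of both treated groups overlapped with that of the young controls.

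Mrps23 had 5120, 5061, 5243, 4046 and 5016 under CR and 6548, 6086, 5221, 5794 and 5028 under resveratrol, against 2426 to 3851 in old controls. The groups did not overlap, with changes of 0.67 (SE 0.13, adjusted p = 0.000388) and 0.89 (SE 0.13, adjusted p = 2.04e-05), and its next probe set rose under resveratrol (0.39) and did not pass under CR (0.24). Mrps22, Mrps23 and Mrpl50 were the 3 members that fell with age and rose under both diets in heart, and Mrpl34 and Mrpl43 fell with age and rose under resveratrol. Mrpl34 had 3904, 4000, 4151, 4013 and 4345 under CR and 5243, 4537, 3676, 4988 and 7982 under resveratrol, against 2525 to 3812 in old controls. Only resveratrol replicate 3 reached into the old control range, the change under CR was 0.43 and did not pass (adjusted p = 0.0741), and that under resveratrol was 0.76 (SE 0.17, adjusted p = 0.00294). Its second probe set gave -0.34 under resveratrol, not past the test. All of these comparisons share the old controls, the group whose actin 3' minus 5' difference stood apart.

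**Figure D3:**
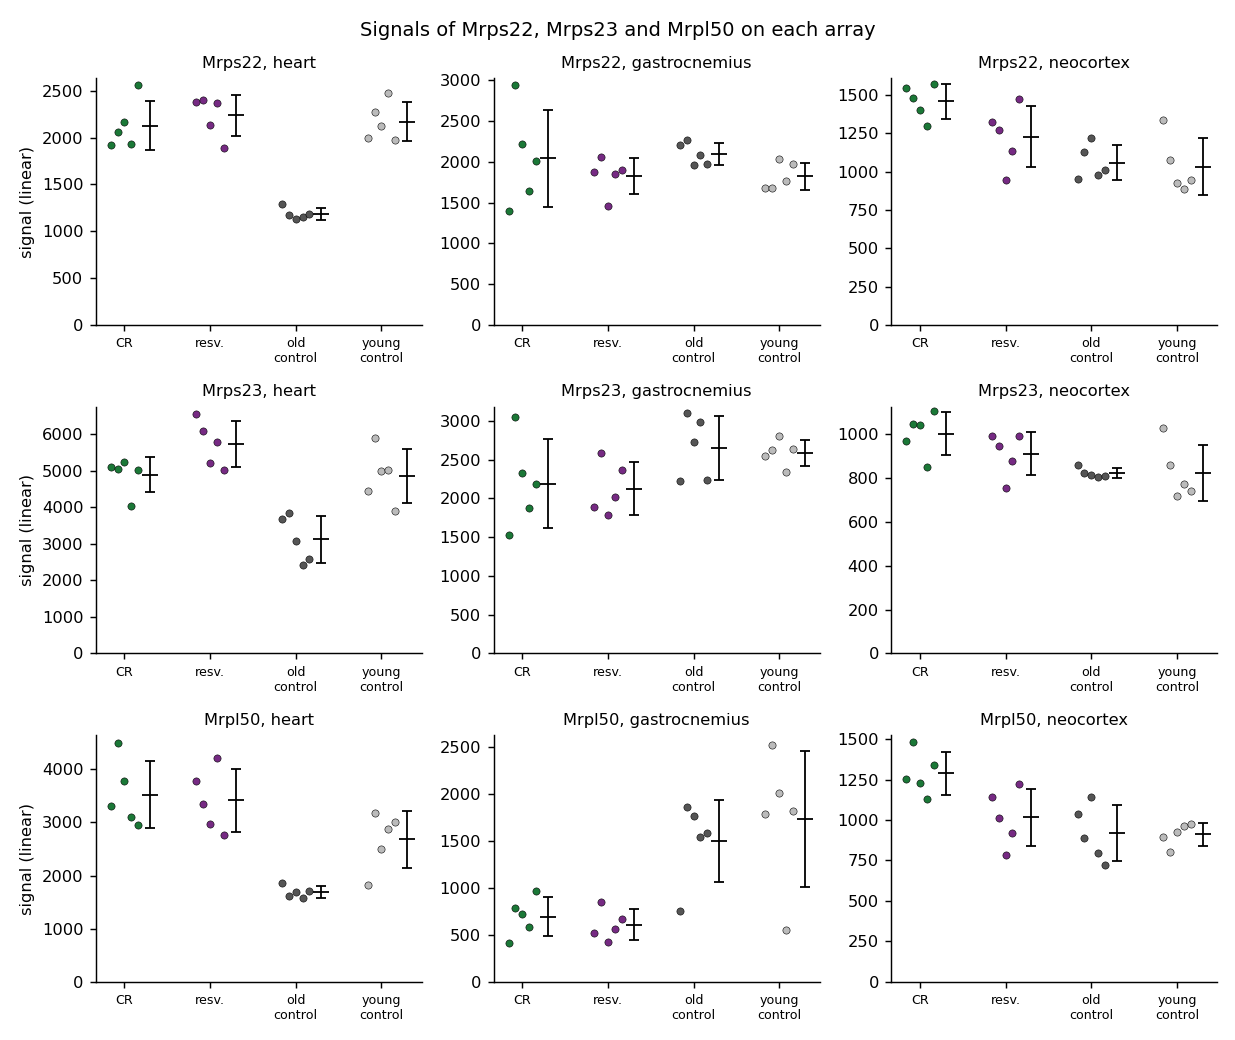
Linear signals of Mrps22, Mrps23 and Mrpl50 on each array in the 3 tissues, with 1 point per array and the mean ± SD of each group of 5 arrays beside it. In heart the old controls of Mrps22 lie between 1127 and 1289, below all arrays of the other 3 groups, and in muscle Mrpl50 is lower under both diets.

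The falls in heart under CR were led by Mrps24, a small subunit protein of mitochondria, with 3687, 3983, 3566, 4011 and 3937 under CR, against 5650, 6700, 5678, 6381 and 5057 in old controls. The groups did not overlap (-0.61, SE 0.10, adjusted p = 0.000101). Under resveratrol it had 3722, 5581, 5025, 4983 and 4311, which reached into the old control range, and fell by 0.33 on the log2 scale (adjusted p = 0.0273), a call lost without any 1 of 4 arrays, with an adjusted p of up to 0.108. Mrpl54 had 1172, 1431, 1218, 1300 and 944 under CR, against 1805, 1785, 1639, 1615 and 1814 in old controls (-0.53, SE 0.14, adjusted p = 0.0072). These groups did not overlap either. Mrps5, which has a bacterial counterpart, fell by 0.48 under CR, and Mrpl52 fell by 0.43. The mean over all probe sets gave 0.49 for Mrpl54, 0.48 for Mrps21 and 0.01 for Mrps5, none past the test, so these falls rest on the brightest probe set.

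CR and resveratrol were also compared directly. In heart 9 members were lower under CR than under resveratrol and none higher (background 1.45% higher and 2.58% lower), and the median difference was -0.17 against -0.01 over all genes, with 63 of 76 members below 0 against 50.9% of all genes. Mrps6, a small subunit protein with a bacterial counterpart, had 5110, 4461, 4091, 4295 and 4439 under CR, against 6131, 5924, 5846, 6182 and 6857 under resveratrol. The groups did not overlap, at -0.47 (SE 0.09, adjusted p = 0.00175). Mrpl43, found only in mitochondrial ribosomes, had 2668, 3301, 2939, 2886 and 2384 under CR, against 4044, 3855, 3456, 3830 and 3766 under resveratrol (-0.43, SE 0.09, adjusted p = 0.00745). The others were Mrpl24, Mrps33, Mrpl21, Mrpl18, Mrps12, Mrps21 and Mrpl13, between -0.42 and -0.31. The count was 5 without CR replicate 1, 3, 4 or 5, 4 without resveratrol replicate 4, and 14 without resveratrol replicate 5 or young control replicate 1, always with none higher. The call of Mrpl21 was lost without any 1 of 3 arrays (adjusted p of up to 0.0594). The mean of its probe sets had the opposite sign and did not pass (adjusted p = 0.876).

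Other genes of mitochondrial translation were counted in heart in the same way. Of the 13236 genes tested, 8.08% rose and 14.2% fell under CR, and 7.17% rose and 10.6% fell under resveratrol. Of 22 factors of ribosome assembly and rRNA modification, 8 fell and none rose under CR, and 5 fell and 2 rose under resveratrol. Falls under CR included the rRNA methyltransferase Mrm1 (-0.87, SE 0.15), the GTPase Eral1 (-0.70, SE 0.14) and the GTPase Noa1 (-0.61, SE 0.17). Of 22 mitochondrial aminoacyl-tRNA synthetases and related enzymes 1 rose and 6 fell under CR, and 3 rose and 3 fell under resveratrol. Of 5 ribosomal subunits listed under other symbols, Gadd45gip1 and Dap3 fell under CR, at -0.79 (SE 0.12) and -0.20 (SE 0.07). Of 12 translation factors 1 rose and 3 fell under CR, where Tufm, the elongation factor that delivers aminoacyl-tRNA, was at -0.42 (SE 0.11), and 3 rose and none fell under resveratrol, among them Tsfm (0.50, SE 0.13). Of 16 genes for transcription and RNA of mitochondrial DNA 3 fell under CR and none rose, with Tfam, which packages that DNA, at -0.48 (SE 0.10). Of 10 nuclear regulators Pprc1 (-1.71, SE 0.33) and Yy1 (-0.61, SE 0.15) fell under CR.

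Markers of other cells moved in the same comparisons of heart. Over all genes 8.08% rose and 14.2% fell under CR, 7.17% rose and 10.6% fell under resveratrol, and 7.09% rose and 3.9% fell with age. Of 7 macrophage markers 5 rose under CR and 5 under resveratrol, and their summed signal ranged from 17642 to 21399 under CR, from 15231 to 23062 under resveratrol and from 10791 to 15022 in old controls. Of 6 fibroblast markers 2 rose under CR, 3 rose under resveratrol and 3 fell with age, and their sum ranged from 41844 to 48750 under CR, from 35590 to 46979 under resveratrol, from 16917 to 35937 in old controls and from 27966 to 44963 in young controls. Both tested adipocyte markers rose under CR and 1 of 2 under resveratrol, and the sum of 3 such markers ranged from 42808 to 50610 under CR, from 38060 to 52887 under resveratrol and from 26220 to 35901 in old controls. Of 4 endothelial markers 1 rose and 1 fell under CR, and 1 rose and 2 fell under resveratrol. Of 8 heart muscle cell markers 1 rose under each diet. Their part in the members' changes was not tested.

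In muscle 19 members rose and 5 fell under CR (background 17.2% rose and 13.7% fell), with a median change of 0.12 against 0.10 over all genes and 5 Mrps and 14 Mrpl genes among the rises. The median lay close to that of all genes. Under resveratrol 9 rose and 5 fell (background 9.57% rose and 9.28% fell), with a median of 0.07 against 0.07, shares close to the background. CR and resveratrol did not differ in any member past the test (background 0.258% higher and 0.297% lower), and limma gave 3 members at an unadjusted p under 0.05 (background 13.2%). Against the same old controls, the brightest probe sets of Mrpl1, Mrpl28, Mrpl39, Mrpl44, Mrpl51, Mrpl52, Mrps18c, Mrps33 and Mrps9 rose under each diet. Those of Mrpl10, Mrpl37, Mrpl38 and Mrpl50 fell under each. Probe sets of Mrpl44 passed the test in opposite directions under both diets, so no direction can be given for it. The same held for Mrpl38 under CR and for Mrpl1 and Mrps9 under resveratrol. Under resveratrol the call of Mrpl1 was lost without any 1 of 7 arrays (adjusted p of up to 0.106) and that of Mrps33 without any 1 of 6 (up to 0.0868). Left out 1 at a time, old control replicates 3, 4 and 5 each reduced the count under resveratrol to 9.

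The largest rise in muscle was that of Mrpl20, which has a bacterial counterpart in the core of the large subunit. Its signals were 2032, 4780, 2856, 2769 and 2571 under CR, against 1628, 1551, 1128, 1592 and 1594 in old controls, without overlap (0.95, SE 0.22, adjusted p = 0.00297). Under resveratrol it had 2219, 2700, 1574, 2622 and 2262, which overlapped with the old controls. Mrpl28 had 3389, 5625, 4311, 3398 and 3648 under CR and 3175, 3297, 3138, 3229 and 3272 under resveratrol, against 2279, 2461, 1992, 2066 and 1887 in old controls. Neither group overlapped with old controls (0.91, SE 0.12, adjusted p = 2.3e-05 under CR and 0.60, SE 0.12, adjusted p = 0.00198 under resveratrol). Its other 2 probe sets gave 0.64, past the test, and 0.20, not past it, under CR, and 0.16 and -0.07 under resveratrol. Mrps18c, 1 of 3 mouse relatives of a single bacterial protein, had 4151, 7886, 5602, 5139 and 5188 under CR and 4907, 6147, 4281, 4515 and 5174 under resveratrol, against 3330, 3455, 3033, 3247 and 2835 in old controls. It rose by 0.79 (SE 0.14, adjusted p = 0.00028) and 0.65 (SE 0.14, adjusted p = 0.00257). Replicate 2 was the highest CR array for all 3 genes. Without it, 16 members rose and 6 fell under CR, and without CR replicate 1, 27 rose and 6 fell. For these fits the shares of all genes were not counted.

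Mrps9 is a small subunit protein with a bacterial counterpart. By the brightest probe sets alone, it was the only member that rose in all 3 tissues under resveratrol (background 0.527% of 11005 genes). In muscle it had 2273, 3084, 2336, 2009 and 2303 under CR and 2069, 2073, 1852, 2114 and 2052 under resveratrol, against 1474, 1482, 1437, 1361 and 1457 in old controls. The changes were 0.72 (SE 0.11, adjusted p = 5.27e-05) and 0.49 (SE 0.11, adjusted p = 0.00267). In heart it had 3003, 4310, 3750, 3750 and 2553 under resveratrol, against 2507, 2620, 2463, 2268 and 2310 in old controls (0.49, SE 0.11, adjusted p = 0.00226), and in neocortex 892, 1159, 1027, 1283 and 1189, against 791, 751, 797, 874 and 706 (0.49, SE 0.12, adjusted p = 0.00264). The 5 resveratrol arrays lay above all old controls in muscle and neocortex, and in heart 1 array overlapped. Of its 4 probe sets 1 fell in muscle under resveratrol, at -0.49, while 2 rose, at 0.49 and 0.55. No direction can therefore be given for Mrps9 there. In neocortex the 3 others gave -0.36 to 0.05 and did not pass, and neither did the mean of its probe sets (adjusted p = 0.819).

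Mrpl50 went down in muscle, where it had 417, 786, 720, 585 and 962 under CR and 520, 852, 419, 562 and 667 under resveratrol, against 753, 1861, 1765, 1536 and 1587 in old controls. The changes were -1.10 (SE 0.33, adjusted p = 0.0156) and -1.29 (SE 0.33, adjusted p = 0.00877), and old control replicate 1, the array with the high GAPDH difference, lay among the treated ones. Without that array the change under CR was -1.33. The second probe set of Mrpl50 gave 0.13 and 0.03, with no change past the test. Mrpl38, a large subunit protein of mitochondria, had 1335, 963, 1254, 1285 and 1245 under CR and 1367, 1213, 1437, 1350 and 1233 under resveratrol, against 1749, 2175, 2130, 2261 and 1977 in old controls. It fell without overlap (-0.76, SE 0.11, adjusted p = 3.44e-05 under CR and -0.64, SE 0.11, adjusted p = 0.000375 under resveratrol), while a dim probe set of the same gene rose under CR at 1.51. Mrps18b, a sister gene of Mrps18c, had 1372, 1303, 1547, 1775 and 1637 under CR, against 2084, 2321, 2142, 2306 and 2208 in old controls (-0.54, SE 0.14, adjusted p = 0.00653).

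Mrpl44 shows how far probe sets of the same gene went apart in muscle. The set with the highest signal had 3537, 4101, 2831, 3158 and 3179 under CR and 3408, 3019, 2939, 3063 and 2936 under resveratrol, against 2560, 1870, 1926, 1818 and 1930 in old controls, and rose by 0.73 (SE 0.14) and 0.61 (SE 0.14). The second set, of the x type, rose by 0.96 (SE 0.14) and 0.80 (SE 0.14). The third set had 1203, 1110, 919, 779 and 1184 under CR and 1177, 1204, 899, 984 and 1260 under resveratrol, against 1473, 1545, 1649, 1523 and 1645 in old controls, with changes of -0.61 (SE 0.13) and -0.51 (SE 0.13). The fourth set gave -1.29 (SE 0.31) and -1.03 (SE 0.31). All 8 changes passed the test with every probe set on its own, 4 in each direction, so no direction can be given for Mrpl44 in muscle. In neocortex under CR all 4 sets rose, between 0.25 and 0.60. The 4 sets' positions on the transcript were not used here.

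**Figure D4:**
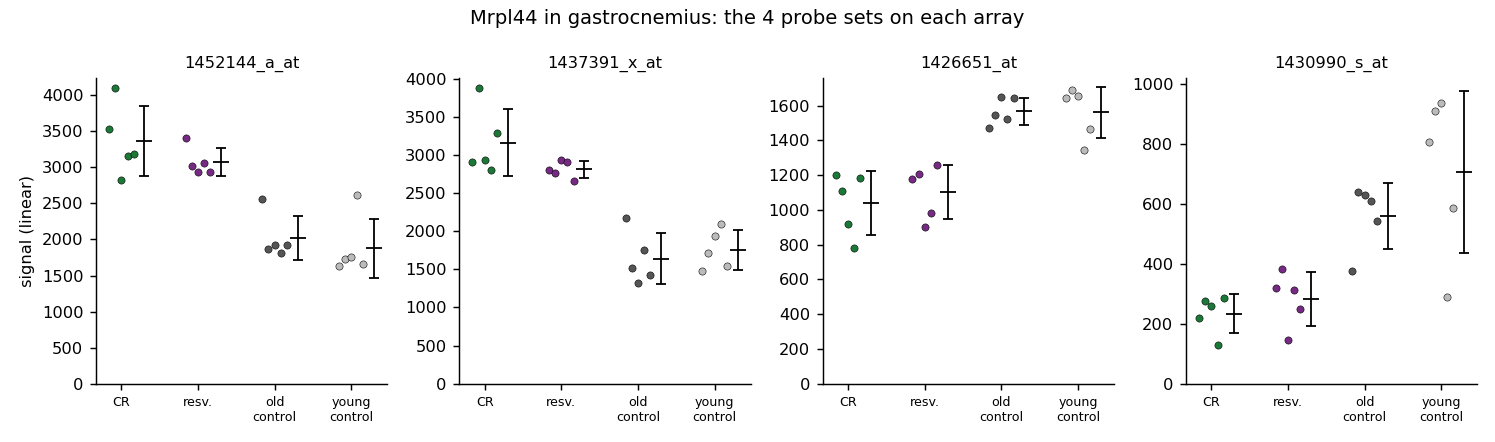
Linear signals of the 4 probe sets of Mrpl44 on each array of gastrocnemius muscle, with 1 point per array and the mean ± SD of each group of 5 arrays beside it. On average the first 2 sets are higher and the last 2 lower under both diets than in old controls.

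Such disagreement was counted over the family. In muscle 2 of the 37 members with 2 or more probe sets above the filter had sets that passed the test in opposite directions under CR (Mrpl44 and Mrpl38) and 3 under resveratrol (Mrpl44, Mrpl1 and Mrps9), against 7.9% and 4.73% of all genes with 2 or more sets. In neocortex it was 1 of 37 under CR (Mrpl57, at 0.25 and -0.55), against 2.45% of all genes, and in heart none of 36 under either diet, against 3.75% and 1.36%. All sets of a member had the same sign in 14 of 37 members in muscle under CR, 15 of 36 in heart under CR and 20 of 37 in neocortex under CR. These are 37.8%, 41.7% and 54.1% of the members, against 46.4%, 45.8% and 57.6% of all genes with 2 or more sets.

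Around the family in muscle, Esrra, the estrogen-related receptor, rose under both diets (1.16, SE 0.24, and 1.14, SE 0.24), and Gabpa (-0.57, SE 0.13, and -0.51, SE 0.13) and Gabpb1 (-0.97, SE 0.23, and -1.03, SE 0.23) fell under both. Ppargc1a, the coactivator of mitochondrial gene expression, rose under CR (0.69, SE 0.21), fell with age (-1.26, SE 0.21) and was higher under CR than under resveratrol (1.25, SE 0.21). Of 12 translation factors 2 rose and 3 fell under CR, of 22 assembly factors 2 rose and 2 fell, and of 22 synthetases 3 rose and 3 fell. Over all genes in muscle 17.2% rose and 13.7% fell under CR, and 9.57% rose and 9.28% fell under resveratrol. Of 4 endothelial markers 2 fell under each diet, and their summed signal ranged from 626 to 1545 under CR, from 914 to 1415 under resveratrol and from 1481 to 2897 in old controls. Of 7 macrophage markers 3 rose under each diet, and of 6 fibroblast markers 2 fell under CR. Their part in the members' changes was not tested.

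In neocortex 32 members rose and 2 fell under CR (background 13.2% rose and 17.6% fell). The median change was 0.19, against -0.03 over all genes, and the same direction held for the median of the 29 Mrps genes, at 0.16, and of the 47 Mrpl genes, at 0.21. Of the Mrps genes 11 rose and 1 fell, and of the Mrpl genes 21 rose and 1 fell. CR and old control arrays did not overlap in 27 members, 25 of them higher and 2 lower under CR, against 20% of all genes in either direction. The rises were small, between 0.23 and 0.60. Under resveratrol 8 rose and 2 fell (background 12.5% rose and 14% fell), with a median of 0.08 against 0.00. Leaving out single arrays gave 27 to 36 changed members under CR, and the mean of all probe sets gave 19 rises and 1 fall. At these settings the shares of all genes were not counted.

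Mrpl20 had 2302, 2841, 2102, 2203 and 2266 in neocortex under CR, against 1587, 1384, 1684, 1552 and 1519 in old controls. It rose by 0.60 (SE 0.10, adjusted p = 0.000134) without overlap, in the same direction as in muscle. Mrpl41 had 5803, 5824, 5541, 6365 and 5530 under CR, against 3426, 3292, 3872, 4080 and 4666 in old controls, and also rose by 0.60 (SE 0.11, adjusted p = 0.000162), with a second probe set at 0.52. Its remaining, dim set lay under the filter, and averaged over all 3 sets the change was 0.01 and did not pass (adjusted p = 0.985). Mrpl11, whose bacterial counterpart helps to form the site where translation factors bind, had 2873, 3152, 2666, 2525 and 2846 under CR, against 1784, 1813, 2017, 2061 and 1987 in old controls (0.54, SE 0.10, adjusted p = 0.000191). Of its 3 other probe sets 2 also rose.

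Mrps18b, lower in muscle under CR, had 980, 1042, 875, 1044 and 887 in neocortex under CR, against 706, 650, 739, 688 and 636 in old controls (0.50, SE 0.08, adjusted p = 6.9e-05). Mrpl50 had 1254, 1486, 1227, 1132 and 1343 under CR, against 1037, 888, 1146, 798 and 725 in old controls, with overlap at 1 array of each group (0.50, SE 0.12, adjusted p = 0.00318), and its second probe set rose by 0.53. Mrpl39, a mitochondria-specific protein of the large subunit, rose under both diets, with 4752, 5708, 5699, 5309 and 5390 under CR and 5033, 6181, 5120, 5511 and 6668 under resveratrol, against 3658, 3856, 3812, 3841 and 3968 in old controls. Neither diet overlapped with old controls (0.49, SE 0.07, adjusted p = 2.71e-05 and 0.57, SE 0.07, adjusted p = 7.05e-06). The others that rose under both diets were Mrpl12, a stalk protein of the large subunit that recruits translation factors, Mrpl44, Mrpl51, Mrps10 and Mrps31. Averaged over its probe sets, Mrps31 did not pass under resveratrol (adjusted p = 0.808).

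**Figure D5:**
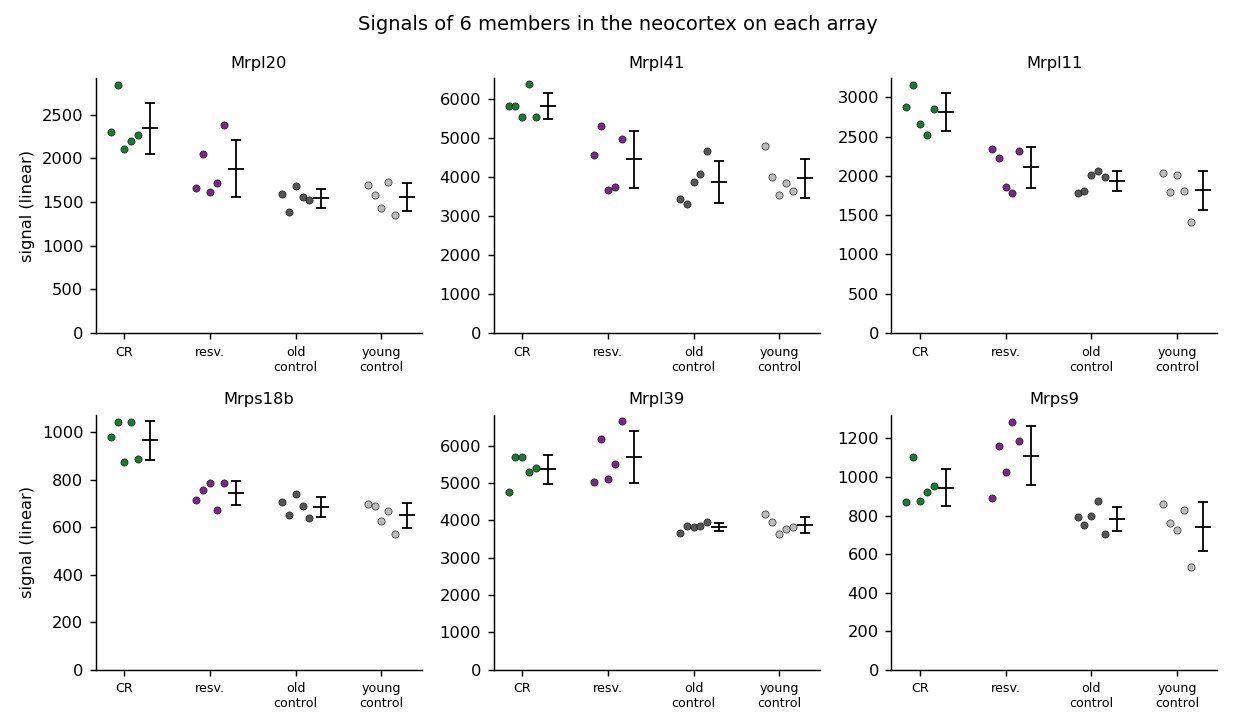
Linear signals of 6 members in the neocortex on each array, with 1 point per array and the mean ± SD of each group of 5 arrays beside it. For Mrpl20, Mrpl41, Mrpl11 and Mrps18b the 5 CR arrays lie above all old and young controls, and for Mrps9 the highest arrays are among those of resveratrol.

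The 2 falls under CR were Mrpl36 at -0.26 (SE 0.10, adjusted p = 0.0456) and Mrps36 at -0.31 (SE 0.12, adjusted p = 0.0489), which had 1043, 897, 1284, 1148 and 976 under CR, against 1200, 1530, 1168, 1164 and 1588 in old controls. Both calls were lost with 14 and 12 of the 20 arrays left out in turn, at an adjusted p of up to 0.128 and 0.14, and with quantile normalization. Under resveratrol Mrps5 (-0.29, SE 0.09) and Mrpl4 (-0.23, SE 0.06) fell. The call of Mrps5 was lost without old control replicate 5 or resveratrol replicate 3 (adjusted p of up to 0.0705) and when its probe sets were averaged (adjusted p = 0.28).

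In the direct comparison 10 members were higher under CR than under resveratrol in neocortex and none lower (background 3.7% higher and 5.86% lower). The median difference was 0.09, against -0.02 over all genes. The signals under CR and resveratrol did not overlap for Mrpl11, with 1786 to 2338 under resveratrol (0.42, SE 0.10, adjusted p = 0.00924), for Mrpl41, with 3671 to 5294 (0.40, SE 0.11, adjusted p = 0.0203), or for Mrps18b, with 674 to 787 (0.37, SE 0.08, adjusted p = 0.0062). The call of Mrpl41 was lost without resveratrol replicate 3 or 4 (adjusted p of up to 0.062). With the mean of all probe sets neither Mrpl41 (adjusted p = 0.314) nor Mrpl11 (adjusted p = 0.0992) passed. The others were Mrpl16, Mrps11, Mrpl20, Mrpl57, Mrpl22, Mrps34 and Mrps7. For Mrps11 the mean of its probe sets had the opposite sign and did not pass (adjusted p = 0.748). The count of members was 5 without CR replicate 2 or resveratrol replicate 3, 6 without CR replicate 4 or 5, and 4 without resveratrol replicate 4. Whether this difference between the diets differs between heart and neocortex was not tested.

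Over all genes in neocortex 13.2% rose and 17.6% fell under CR, and 12.5% rose and 14% fell under resveratrol. Around the family in neocortex under CR, 6 of 21 synthetases rose and 2 fell, among them Pars2 (0.54, SE 0.17) and Iars2 (0.44, SE 0.11). Of 22 assembly factors 3 rose and none fell, led by Dhx30 (0.49, SE 0.08). Of 12 translation factors 1 rose and 1 fell, of 16 genes for mitochondrial DNA transcription and RNA 2 rose and 1 fell, and of 10 regulators 1 rose and 3 fell, with Ppargc1a at 0.38 (SE 0.12). Under resveratrol 4 assembly factors rose and 2 fell, with Dhx30 (0.59, SE 0.08) and Fastkd2 (0.59, SE 0.09) among the rises and Noa1 (-0.38, SE 0.13) and Spg7 (-0.38, SE 0.11) the falls. Of the synthetases 4 rose and 2 fell, with Yars2 at 1.02 (SE 0.14) and Sars2 at -0.87 (SE 0.15). None of the translation factors passed, 3 genes for mitochondrial DNA transcription and RNA rose and 1 fell, 1 regulator rose and 2 fell, and of the other subunits Gadd45gip1 fell (-0.31, SE 0.08). Of 4 astrocyte markers 2 fell under CR, with summed signals of 6129 to 7301 under CR and 7556 to 10994 in old controls, and of 8 neuronal markers 1 rose and 2 fell, with sums of 84640 to 98371 under CR and 87146 to 103787 in old controls. Under resveratrol 3 of the neuronal markers fell and 3 of 6 microglial markers rose. Their part in the members' changes was not tested.

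Whether the changes themselves differed between the tissues was tested with an F-test in a fit of all 60 arrays. The change with age differed between tissues for 6 members (background 5.49% of 15129 genes), the change under CR for 33 (26.8%) and that under resveratrol for 16 (19.3%). For CR the smallest adjusted p were those of Mrpl28 (3.21e-07), with changes of -0.20 in heart, 0.91 in muscle and 0.26 in neocortex, Mrpl50 (3.17e-06) and Mrps18b (7.44e-06). For resveratrol they were Mrpl50 (2.52e-06), Mrps23 (8.53e-06) and Mrps22 (1.39e-05). Mrps22 was the member with the smallest adjusted p for age (0.000107).

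Across the tissues 22 members rose in 2 or more of them under CR (background 6.93% of 11005 genes) and none in all 3 (background 0.682%). The brightest probe sets of Mrpl36, Mrpl38 and Mrps36 fell in 2 (background 10.4%). The neocortex falls of Mrpl36 and Mrps36 were lost with 14 and 12 of the 20 arrays left out in turn. In muscle, probe sets of Mrpl38 passed in opposite directions. Mrpl50, Mrpl52, Mrps18b and Mrps36 moved in opposite directions in different tissues under CR (background 6.27%), and Mrpl50 did under resveratrol (background 3.74%). Mrpl52 rose in muscle under CR (0.47) and fell in heart (-0.43), and Mrps36 rose in muscle (0.60) and fell in heart (-0.27) and neocortex. Under resveratrol 6 rose in 2 or more tissues (background 5.06%), and the brightest probe sets of Mrpl38 and Mrps5 fell in 2 (background 6.34%). Averaged over its probe sets, Mrpl38 did not pass in heart (adjusted p = 0.457) or muscle (0.799). Averaged in the same way, Mrps5 did not pass in heart (0.753) or neocortex (0.28). Over the 9 comparisons with old controls or between old and young controls, 60 members changed in at least 1 and 16 in none, against a background of 73% of 11005 genes tested in all 3 tissues that changed in at least 1, so the share of members was near that of all genes. The 16 were Mrpl13, Mrpl14, Mrpl17, Mrpl18, Mrpl19, Mrpl2, Mrpl23, Mrpl32, Mrpl35, Mrpl9, Mrps15, Mrps18a, Mrps2, Mrps25, Mrps26 and Mrps34. They include Mrpl2, a core protein of the large subunit with a bacterial counterpart.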

How the data were processed

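RNA of 1 mouse was hybridized to each of 60 arrays. Signal intensities were computed by the authors with GCOS 1.2 and scaled on each array to a trimmed mean of 500 before they were deposited. The labels name no batch. Of 45101 probe sets, 64 controls were left out, and 34945 of the rest had 1 gene symbol. Signals under 1 were set to 1, log2 was taken, and genes entered the fit of a tissue if the brightest probe set averaged at or above the 40th percentile there. Groups were fitted with limma 3.58.1 (eBayes with trend) in R 4.3.3. The fit was also run on simulated data with changes put into independent noise. These held no differences in array quality between groups, so the effect of such differences was not tested. The number of arrays limits the precision. Arrays of different tissues were treated as different mice, and array quality was compared by exact permutation. By rule, the named members were the 5 largest rises and falls of a comparison, the 3 highest and lowest of each tissue difference, those whose probe sets or tissues moved in opposite directions, and those changed alike by both diets in 2 tissues, with up to 3 changed genes of a related list. Lists of the others were named after their values were seen. Members, lists and printed promoters were chosen with earlier results of these data known. Alternatives were quantile normalization, an offset of 32, other filters, Student's t-test of the methods, eBayes without trend, 2 groups only, other use of probe sets, a replicate block and each array left out. Tables were made in Python 3.11.15 (pandas 2.3.3, with numpy 2.4.6) and tests of array quality with scipy 1.17.1, and plots were drawn by matplotlib 3.10.9.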

Additional observations from a re-analysis of the deposited data

Results flagged for a closer look

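In 14 of 112 groups of 5 arrays behind the printed signals, the highest or lowest array stood apart from the other 4 by more than Dixon's limit on the log2 scale, where chance alone sets apart about 1 in 20. The ratio of the gap to the range in heart was 0.829 for Mrps23 under CR, 0.775 for Mrpl45 under CR and 0.8 in young controls, 0.907 for Mrps10 in young controls and 0.739 for Mrps6 in young controls. In muscle it was 0.788 for Mrpl50 in old controls and 0.773 in young controls, 0.867 for Mrpl20 in old controls, 0.786 for Mrpl38 under CR, 0.774 for Mrps9 under resveratrol and 0.753 for Mrps18b in young controls. For Mrpl44 in muscle it was 0.715 under resveratrol, 0.826 in old controls and 0.853 in young controls. Old control replicate 1 and young control replicate 4 of muscle were the arrays apart for both Mrpl44 and Mrpl50.

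The change with age differed between tissues for 6 members, that under CR for 33 and that under resveratrol for 16 (limma F-test, adjusted over all genes). Among members with printed signals, the adjusted p for age was 0.000107 for Mrps22, 0.00353 for Mrpl45, 0.00548 for Mrpl43 and 0.0201 for Mrps23. For CR it was 3.21e-07 for Mrpl28, 3.17e-06 for Mrpl50, 7.44e-06 for Mrps18b, 0.000142 for Mrps36, 0.000224 for Mrps22, 0.00025 for Mrps23, 0.000416 for Mrpl38 and 0.000438 for Mrpl44. It was 0.00135 for Mrpl20, 0.00212 for Mrps18c, 0.00441 for Mrps24, 0.00701 for Mrps9, 0.00874 for Mrpl41, 0.027 for Mrpl11 and 0.0365 for Mrps10. For resveratrol it was 2.52e-06 for Mrpl50, 8.53e-06 for Mrps23, 1.39e-05 for Mrps22, 0.00542 for Mrpl43, 0.00871 for Mrpl28, 0.0131 for Mrps18c, 0.0224 for Mrpl34, 0.0359 for Mrpl44 and 0.04 for Mrpl38.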

How the results depend on the processing

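The cause of the following differences was not tested, except that fewer samples or other probe sets enter by construction. Shares of all genes were not counted at the other settings, so a changed count need not be particular to the members. Changed members in heart with age numbered 10, against 17 with quantile normalization, 4 with the methods' t-test after Benjamini-Hochberg and 17 with every probe set on its own. In heart under resveratrol they numbered 19, against 12 with the mean of all probe sets, and between CR and resveratrol 9, against 5 without the trend, 5 with that mean and 3 with the t-test. In muscle with age there were 0, against 3 with the t-test at p of 0.01 or less, under CR 24, against 37 with every probe set, and under resveratrol 14, against 24 with only the 2 groups compared and 24 with every probe set. In neocortex under CR there were 34, against 20 with the mean of all probe sets, under resveratrol 10, against 5 with that mean and 16 with every probe set, and between the diets 10, against 4 with that mean and 3 with the t-test. With 1 array left out, the counts were 8 to 17 in heart with age, 4 to 14 in heart and 4 to 13 in neocortex between CR and resveratrol, and 9 to 21 in muscle under resveratrol. The mean of all probe sets reversed Mrpl21 in heart between the diets (0.15), Mrpl38 in muscle under CR (0.38) and resveratrol (0.10), Mrpl44 there (-0.051 and -0.033), Mrpl54 (0.49), Mrps21 (0.48) and Mrps5 (0.014) in heart under CR, and Mrps11 in neocortex between the diets (-0.15). Of 70 named changes 13 lost the threshold with at least 1 array left out, and 28 were lost or reversed with that mean.

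Within each tissue, same-numbered arrays of the groups compared were correlated by their deviations from the group means. The correlations ran from -0.198 to 0.155, and all were positive in muscle between CR and old controls (0.034 to 0.149). No comparison had every pair over 0.1, which does not exclude a pairing. Same-numbered arrays of different tissues were not compared. With a replicate block, 22 members changed in heart, 26 in muscle and 32 in neocortex under CR.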
